A study of Mus musculus with 24 samples.

Results

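Inguinal white fat (iWAT, the subcutaneous depot of the groin) was compared with epididymal white fat (eWAT, a visceral depot of the abdomen) in C57BL6 mice that carried an adeno-associated viral vector (AAV) for irisin and ate a high-fat diet (HFD) over 18 weeks. The comparison used 3 libraries of iWAT and 3 of eWAT, chosen by depot, vector and diet from the sample labels, and ran across the 14654 genes that reached 0.5 FPKM in at least 3 of these 6 libraries, of 54532 genes in the deposited table. FPKM stands for fragments per kilobase of gene, scaled to library size, so that levels can be set beside each other between genes. Other groups of the series serve only for tests of the depot difference itself: iWAT and eWAT of mice with the same irisin vector on chow, and iWAT and eWAT of mice with a control vector for GFP on HFD or on chow, again with 3 libraries each and 18 weeks of diet. Irisin is a hormone cleaved from the membrane protein encoded by Fndc5, and the series title links it to the cytokine IL-33 and its receptor ST2. The labels give neither the promoter of the vector, its dose and the tissue it entered, nor the sex and age of the mice, and do not state that each library stands for its own mouse. P-values therefore cover the spread among these libraries, which may be technical.

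White fat depots differ in embryonic origin, and adult fat keeps part of that history in its homeobox genes, a class of transcription factors that give a body region its identity. Visceral fat is covered by mesothelium, a sheet of epithelial cells that subcutaneous fat lacks. In obese mice the epididymal depot is known for macrophages that surround dying adipocytes, take up their lipid and break it down in lysosomes.

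The 6 libraries held 14.6 M to 19.3 M recovered gene reads, and a level of 1 FPKM in a gene of 2000 bases stood for 26.7 to 38.6 reads. The depot labels were checked with the T-box factor Tbx15, a marker of subcutaneous preadipocytes, and with Wt1, a zinc finger factor found in mesothelium and visceral fat. Tbx15 had 3.7, 5.38 and 4.76 FPKM in iWAT, against 0, 0.0192 and 0 FPKM in eWAT. Wt1 was at 0 in all 3 iWAT libraries and at 3.91, 3.12 and 1.19 FPKM in eWAT, so that both genes went with the labels. Skeletal muscle genes summed to 19.6, 19.4 and 37.1 FPKM in iWAT, against 25.3, 92.6 and 22.1 FPKM in eWAT, and epididymis and testis genes to 1.04, 0.477 and 0.813 FPKM in iWAT, against 0.992, 1.8 and 0.971 FPKM in eWAT, with the epididymal gene Adam7 at 0 in all 6. The eWAT library of replicate 2 stood apart from the other eWAT libraries: it held less macrophage RNA and more adipocyte RNA, with the macrophage antigen Adgre1 at 32.3 FPKM against 115 and 145 FPKM in replicates 1 and 3. Counts of called list members are therefore also given without it. It was singled out by these same values, so higher counts of called macrophage and adipocyte genes without it are not separate support. Members of any list called numbered 9 with all 6 libraries, 185 without it, and 5 to 19 without any 1 of the others.

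At an adjusted p under 0.05 (limma on log2(FPKM + 0.5), adjusted over all 14654 genes), 28 genes differed between the depots, 0.191% of those tested: 13 genes were higher in iWAT (0.0887%) and 15 were lower (0.102%). All 28 had iWAT libraries that did not overlap the eWAT libraries, while 24.3% of all genes tested did so, and 2899 genes had an unadjusted p under 0.05. Call and overlap rest on the same 6 values, so the lack of overlap is not separate support. A gene under 0.5 FPKM in every library of 1 depot passed the filter only if all 3 libraries of the other reached it. Its lack of overlap was thus fixed in advance. Of the 28 genes 26 code for proteins and the other 2 are immunoglobulin segments. The genes higher in iWAT were led by developmental transcription factors, and those lower in iWAT by the mesothelial product Slpi, the collagen Col6a5 and immunoglobulin segments. Large differences were more often toward eWAT: the log2 difference was above 1 in 339 genes and below -1 in 957, with a median of 0.02 over all genes. Without eWAT replicate 2 the same test called 1406 genes (9.59%), 497 higher (3.39%) and 909 lower (6.2%), among them all 28. Without eWAT replicate 3 it called 10 higher and 50 lower, and without any 1 of the other 4 libraries 5 to 8 higher and 2 to 6 lower. The calls for Hoxc10, Hoxa10, Hoxa9, Shox2, Tbx15 and the immunoglobulin segment Igkv5-48 held whichever library was left out, and all 28 genes kept their sign. With the spread taken from all 8 groups of the series it called 1794 (12.2%), 658 higher (4.49%) and 1136 lower (7.75%), among them 26 of the 28. In bulk tissue a smaller number of cells of a type cannot be told apart from less RNA per cell.

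**Figure D1:**
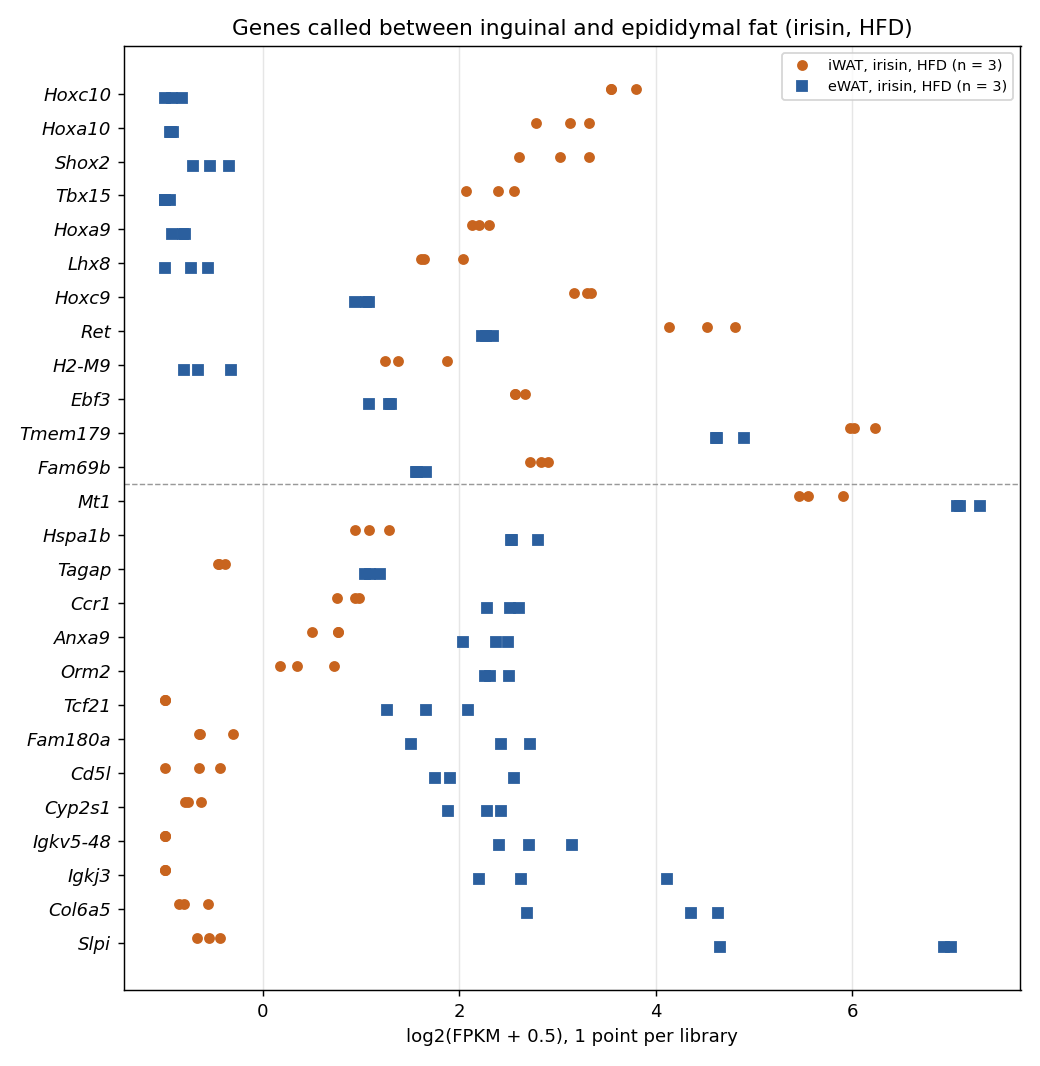
Levels of 26 of the 28 called genes as log2(FPKM + 0.5), 1 circle for each iWAT library and 1 square for each eWAT library, ordered by the log2 difference, with genes higher in iWAT above the dashed line and genes lower in iWAT under it. A value of -1 is 0 FPKM. The iWAT and eWAT points of each gene do not overlap, and the largest log2 differences of the group means are those of Slpi (-6.75), Col6a5 (-4.63) and Hoxc10 (4.54).

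Hox genes, the clustered homeobox genes that pattern the body from head to tail, gave 4 of the 13 rises. Hoxc10 had 13.4, 11.2 and 11.2 FPKM in iWAT, against 0.0271, 0 and 0.0668 FPKM in eWAT. Hoxa10 had 6.36, 8.23 and 9.51 FPKM in iWAT, against 0.0317, 0.022 and 0.0195 FPKM in eWAT, and Hoxa9 had 3.86, 4.43 and 4.09 FPKM in iWAT, against 0.0278, 0.0772 and 0.0686 FPKM in eWAT. Each of these 3 genes was thus well expressed in every iWAT library and at the edge of detection in every eWAT library. Hoxc9 had 8.49, 9.65 and 9.33 FPKM in iWAT, against 1.62, 1.57 and 1.42 FPKM in eWAT, so that eWAT had a clear level of it and the depots still stood apart. The log2 differences were 4.54 ± 0.17 for Hoxc10 (adjusted p = 0.000532), 4.01 ± 0.20 for Hoxa10 (0.00192), 3.05 ± 0.18 for Hoxa9 (0.00263) and 2.25 ± 0.15 for Hoxc9 (0.00315). Differences of genes near 0 in 1 depot depend on the pseudocount of 0.5. In summed reads, which carry counting error only, Hoxc10 was at 1139 reads in iWAT and 3 in eWAT, a ratio of 373 scaled for depth, with an exact 95% interval of 127 to 1813.

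These 4 genes belong to paralogue groups 9 and 10 of the Hoxa and Hoxc clusters. Hoxa10 lies on chromosome 6, positions 52231197 to 52240854, minus strand, beside Hoxa9 at positions 52223100 to 52231089. Hoxc10 lies on chromosome 15, positions 102966796 to 102971893, plus strand, beside Hoxc9 at positions 102976439 to 102985099, all as the deposited table gives them. The table's model of Hoxc5 overlaps both Hoxc9 and Hoxc10 on the same strand, so that reads of Hoxc5 are uncertain. Among 39 Hox genes of the deposited table, 24 were tested, with a median log2 difference of 0.49, against 0.02 over all genes. Of the 24, 4 were called higher, against 0.0887% of all genes, and none of the other 20 tested Hox genes was called. Their differences ran between -0.92 (Hoxc4) and 0.95 (Hoxa7), and the 15 genes that were not tested include Hoxc11, at 0.0536, 0.223 and 0.11 FPKM in iWAT and 0 in all 3 eWAT libraries, and Hoxd10, at 0.477, 0.371 and 0.215 FPKM in iWAT, against 0, 0.119 and 0.0351 FPKM in eWAT.

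Lower-numbered genes of the same clusters were expressed in both depots. Hoxc8, the most abundant Hox gene here, had 36.0, 49.6 and 47.8 FPKM in iWAT, against 28.9, 58.7 and 18.9 FPKM in eWAT (log2 difference 0.46 ± 0.39, adjusted p = 0.569). Hoxc6 had 18.1, 13.3 and 14.3 FPKM in iWAT, against 10.6, 12.3 and 7.97 FPKM in eWAT (log2 difference 0.55 ± 0.20, adjusted p = 0.204). Hoxa7 had 6.05, 6.98 and 5.44 FPKM in iWAT, against 3.04, 4.4 and 1.82 FPKM in eWAT (log2 difference 0.95 ± 0.28, adjusted p = 0.15). The 2 depots thus overlapped for Hoxc8 and did not overlap for Hoxc6 and Hoxa7, whose differences did not pass the test. Hoxc4 went the other way, with 2.93, 2.13 and 2.56 FPKM in iWAT, against 5.08, 6.21 and 4.52 FPKM in eWAT (log2 difference -0.92 ± 0.19, adjusted p = 0.0988), and was the single tested Hox gene with all iWAT libraries under all eWAT libraries. Over the 24 tested Hox genes 11 had all iWAT libraries above all eWAT libraries (11.2% of all genes tested did) and 1 had them all under (13.1%). Among the 11, Hoxa9, Hoxa10 and Hoxc10 passed the filter through iWAT alone, which fixed their lack of overlap in advance. With eWAT replicate 2 left out, 5 of the 24 were called higher, against 3.39% of all genes. Hoxd9 had 4.16, 2.56 and 2.61 FPKM in iWAT, against 1.7, 2.72 and 1.97 FPKM in eWAT and Hoxb9 1.3, 0.67 and 0.606 FPKM in iWAT, against 0.241, 0.363 and 0.52 FPKM in eWAT, so that these members of paralogue group 9 in the Hoxd and Hoxb clusters differed by 0.45 ± 0.25 and 0.61 ± 0.27 and were not called (adjusted p = 0.371 and 0.276).

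**Figure D2:**
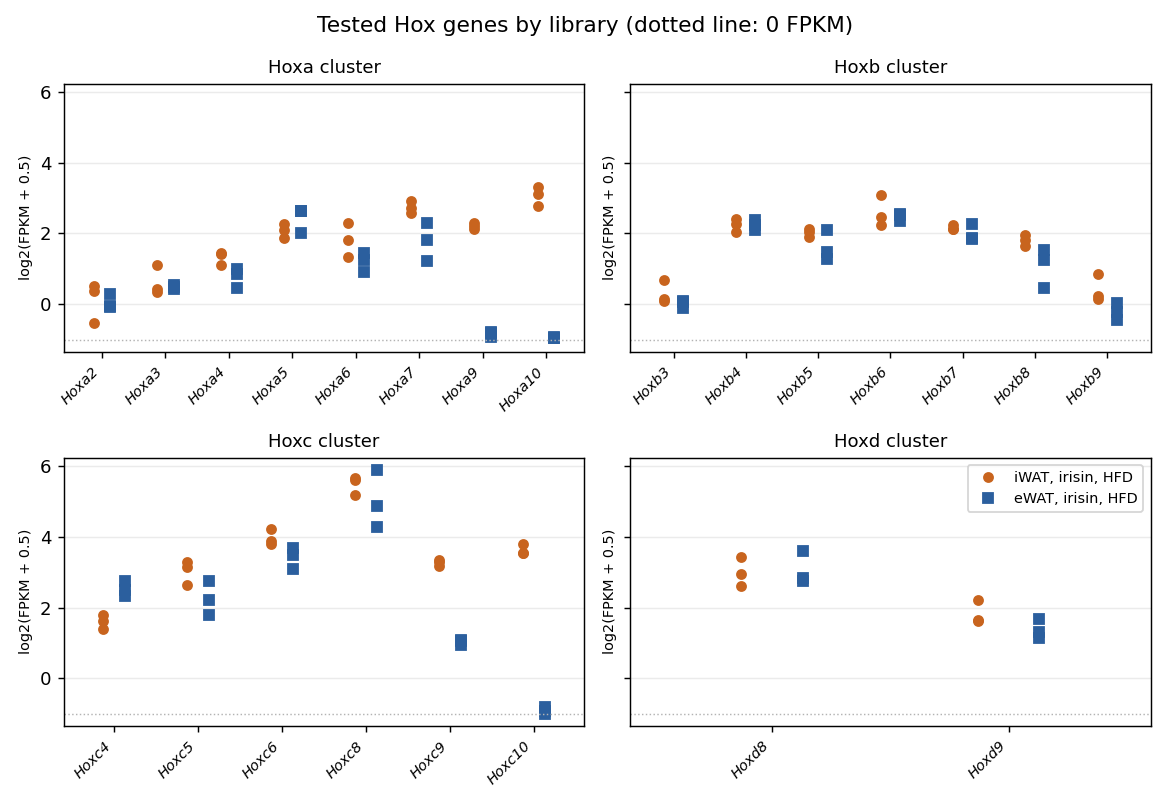
Levels of 23 of the 24 tested Hox genes as log2(FPKM + 0.5), 1 panel per cluster, with 3 iWAT libraries as circles to the left and 3 eWAT libraries as squares to the right of each gene. Hoxa9, Hoxa10 and Hoxc10 sit near the dotted line of 0 FPKM in eWAT and between 3.86 and 13.4 FPKM in iWAT, while Hoxa2 to Hoxa7, the Hoxb genes and Hoxc4 to Hoxc8 lie above that line in both depots.

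Most tested patterning factors of subcutaneous fat were also higher in iWAT. The list of subcutaneous patterning factors had 10 of 14 members tested, with a median log2 difference of 1.46. Of these 4 were called higher in iWAT, against 0.0887% of all genes: Hoxc10, Shox2, Tbx15 and Hoxc9. Hoxc10 and Hoxc9 are also among the Hox calls above. The list was chosen with earlier results of these data known, so its count is not separate support. Shox2, a homeobox factor of limb development, had 9.49, 7.63 and 5.6 FPKM in iWAT, against 0.188, 0.108 and 0.289 FPKM in eWAT (log2 difference 3.52 ± 0.24, adjusted p = 0.00339); its model overlaps the gene Rsrc1 on the opposite strand, and no source used here says whether the counting used the strand. Tbx15 (log2 difference 3.32 ± 0.20, adjusted p = 0.00267), whose levels stand above, had 845 reads in iWAT and 1 in eWAT, a ratio of 831 with an exact 95% interval of 149 to 32848. The Iroquois homeobox genes Irx2, Irx3 and Irx5 were each higher in every iWAT library than in any eWAT library, at 0.776, 1.62 and 1.61 FPKM in iWAT, against 0.0316, 0.0438 and 0.0583 FPKM in eWAT for Irx2, and did not pass the test (log2 difference 1.72 ± 0.27, adjusted p = 0.0697). Irx3 had 3.98, 5.54 and 5.59 FPKM in iWAT, against 1.33, 2.44 and 2.38 FPKM in eWAT (log2 difference 1.14 ± 0.25, adjusted p = 0.105). Irx5 had 0.502, 1.05 and 0.695 FPKM in iWAT, against 0, 0.023 and 0.0816 FPKM in eWAT (log2 difference 1.20 ± 0.25, adjusted p = 0.101). Irx2 and Irx5, under 0.5 FPKM in every eWAT library, passed the filter through iWAT alone, which fixed their lack of overlap in advance. Irx2 and Irx3 were called when eWAT replicate 2 was left out, which gave 6 of 10 called higher against 3.39% of all genes (adjusted p = 0.0296 and 0.0426). Hoxa5, also on the list, overlapped between the depots, with 3.75, 4.27 and 3.15 FPKM in iWAT, against 5.66, 5.66 and 3.57 FPKM in eWAT (log2 difference -0.35 ± 0.22, adjusted p = 0.432).

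A further 2 transcription factors rose. Lhx8, a LIM homeobox factor, had 2.61, 2.55 and 3.61 FPKM in iWAT, against 0.102, 0 and 0.176 FPKM in eWAT (log2 difference 2.53 ± 0.23, adjusted p = 0.0156). Ebf3, a member of the early B cell factor family, had 5.42, 5.43 and 5.85 FPKM in iWAT, against 1.61, 1.97 and 1.93 FPKM in eWAT (log2 difference 1.38 ± 0.15, adjusted p = 0.0389). Lhx8 was thus near 0 in eWAT, while Ebf3 was expressed in both depots.

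Among genes that code for other proteins, the largest rise was that of a receptor. Ret, the receptor tyrosine kinase for ligands of the GDNF family, had 22.4, 17.1 and 27.5 FPKM in iWAT, against 4.59, 4.17 and 4.31 FPKM in eWAT (log2 difference 2.21 ± 0.19, adjusted p = 0.015). H2-M9, a nonclassical MHC class I gene, had 3.15, 1.87 and 2.09 FPKM in iWAT, against 0.0718, 0.299 and 0.133 FPKM in eWAT (log2 difference 2.09 ± 0.26, adjusted p = 0.0471); reads of such a gene family can be shared between near-identical copies, so this value is uncertain. Tmem179, which encodes a membrane protein, was the most abundant gene to rise, with 74.7, 62.6 and 64.3 FPKM in iWAT, against 24.2, 29.4 and 23.9 FPKM in eWAT (log2 difference 1.37 ± 0.15, adjusted p = 0.0369). Fam69b, named here after its values were seen, had 6.06, 6.63 and 6.95 FPKM in iWAT, against 2.45, 2.67 and 2.47 FPKM in eWAT (log2 difference 1.22 ± 0.14, adjusted p = 0.0456). In each of these genes the lowest iWAT library lay above the highest eWAT library. For H2-M9, under 0.5 FPKM in every eWAT library, the filter fixed this in advance.

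Visceral transcription factors were at 0 or low in iWAT. Tcf21, a basic helix-loop-helix factor of visceral mesenchyme, was at 0 in all 3 iWAT libraries, against 3.75, 2.66 and 1.9 FPKM in eWAT (log2 difference -2.67 ± 0.26, adjusted p = 0.0218). Measured against a floor of 3 reads in each iWAT library, its mean was at least 35.2-fold lower in iWAT. The list of visceral and mesothelial factors had 7 of 10 members tested, and Tcf21 was the one called; 6 of the 7 had all iWAT libraries under all eWAT libraries, against 13.1% of all genes, with a median log2 difference of -1.22. Tcf21, Wt1 and Bnc1, at 0 in iWAT, passed the filter through eWAT alone, which fixed their lack of overlap in advance. Of all 14654 genes 12366 passed in all 6 libraries, so the 13.1% is not a like measure for these 3. In the fit that omitted eWAT replicate 2, 2 of the 7 were called lower, against 6.2% of all genes. Wt1 (log2 difference -2.59 ± 0.37, adjusted p = 0.0595) was at least 91.9-fold lower and Bnc1, a zinc finger factor of mesothelium, at least 94.9-fold lower, with 0 in all iWAT libraries and 5.75, 4.69 and 0.893 FPKM in eWAT (log2 difference -2.83 ± 0.55, adjusted p = 0.0939). Neither passed the test, and their eWAT values spread over a wide range, with replicate 3 the lowest. Osr1, a zinc finger factor of embryonic mesoderm, had 7.89, 6.96 and 6.9 FPKM in iWAT, against 36.0, 14.5 and 10.2 FPKM in eWAT (log2 difference -1.22 ± 0.42, adjusted p = 0.184), and the orphan nuclear receptor Nr2f2 went the other way, with 3.94, 2.53 and 2.88 FPKM in iWAT, against 2.36, 1.97 and 2.17 FPKM in eWAT (log2 difference 0.42 ± 0.20, adjusted p = 0.299).

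Mesothelial surface proteins and keratins were near 0 or low in iWAT. Slpi, a secreted inhibitor of leukocyte proteases, had 0.184, 0.127 and 0.236 FPKM in iWAT, against 128, 122 and 24.7 FPKM in eWAT, the largest log2 difference of any called gene (log2 difference -6.75 ± 0.60, adjusted p = 0.0156). Of the 12 tested genes of the mesothelial list it was the only one called; 11 had a negative log2 difference, 8 had all iWAT libraries under all eWAT libraries (13.1% of all genes did), and the median was -3.74. The list summed to 278, 131 and 187 FPKM in iWAT, against 1380.2, 1199 and 540.0 FPKM in eWAT. Most of the iWAT sum is complement C3 and Igfbp6, which other cells make too, while the defining markers named next were near 0 there. Msln, the mesothelial surface protein mesothelin, had 0.205, 0 and 0 FPKM in iWAT, against 41.3, 61.5 and 7.06 FPKM in eWAT (log2 difference -5.59 ± 0.74, adjusted p = 0.0563). Upk3b, a uroplakin of mesothelium, had 0.046, 0 and 0.0316 FPKM in iWAT, against 58.6, 66.5 and 5.62 FPKM in eWAT (log2 difference -5.78 ± 0.87, adjusted p = 0.0655). Both were chosen after their values were seen, and in both eWAT replicate 3 was the lowest eWAT library. Slpi, Msln and Upk3b passed the filter through eWAT alone, which fixed their lack of overlap in advance, so the 13.1% is not a like measure for them. In iWAT replicate 1, 3 other genes of the 13 listed were at 0. Leaving out eWAT replicate 2, 5 of the 12 were called lower, against 6.2% of all genes, and with the spread of all 8 groups 9 were, against 7.75%.

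Col6a5, which encodes a chain of collagen VI, was the only one of 32 tested collagen and matrix genes to be called, with 0.178, 0.0717 and 0.0533 FPKM in iWAT, against 24.3, 5.94 and 20.0 FPKM in eWAT (log2 difference -4.63 ± 0.49, adjusted p = 0.0334). The list as a whole had a median log2 difference of -0.30, with 1 gene whose iWAT libraries were all above and 9 whose iWAT libraries were all under the eWAT libraries, against 11.2% and 13.1% of all genes. With eWAT replicate 2 left out, 3 of the 32 were called lower, against 6.2% of all genes. Cyp2s1, a cytochrome P450 enzyme, had 0.0768, 0.0911 and 0.147 FPKM in iWAT, against 4.37, 4.86 and 3.19 FPKM in eWAT (log2 difference -2.92 ± 0.21, adjusted p = 0.00512). Fam180a had 0.135, 0.14 and 0.312 FPKM in iWAT, against 4.87, 6.08 and 2.34 FPKM in eWAT (log2 difference -2.75 ± 0.34, adjusted p = 0.0471). These 3 genes were close to 0 in every iWAT library.

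Immune genes made up a further group of the falls. Cd5l, a secreted protein of macrophages, had 0.239, 0 and 0.137 FPKM in iWAT, against 2.87, 3.25 and 5.39 FPKM in eWAT (log2 difference -2.77 ± 0.28, adjusted p = 0.0305). Ccr1, a receptor for inflammatory chemokines, had 1.47, 1.19 and 1.42 FPKM in iWAT, against 4.35, 5.6 and 5.22 FPKM in eWAT (log2 difference -1.58 ± 0.17, adjusted p = 0.0369). Tagap, a GTPase-activating protein of activated T cells, had 0.229, 0.268 and 0.235 FPKM in iWAT, against 1.78, 1.63 and 1.55 FPKM in eWAT (log2 difference -1.53 ± 0.19, adjusted p = 0.0471). The 3 genes fell beside macrophage genes, described below, that were lower in iWAT and did not pass the test. The immunoglobulin kappa segments Igkv5-48 and Igkj3, named here outside the rule for named genes, were at 0 in all iWAT libraries, against 8.34, 4.79 and 6.02 and 4.09, 5.67 and 16.8 FPKM in eWAT. Igkv5-48 was at least 12.4-fold lower, and Igkj3 at least 1.82-fold, from 3, 3 and 10 eWAT reads. Such segments share sequence with others of the locus and are uncertain. B cell markers as a list had no called gene among 8 tested, a median log2 difference of -1.06 and sums of 714, 602 and 755 FPKM in iWAT, against 467, 683 and 945 FPKM in eWAT, so that the sums overlapped. In the fit that omitted eWAT replicate 2, 2 of the 8 were called lower, against 6.2% of all genes.

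Anxa9, an annexin, had 1.2, 1.19 and 0.914 FPKM in iWAT, against 5.15, 4.68 and 3.6 FPKM in eWAT (log2 difference -1.63 ± 0.20, adjusted p = 0.0471), and its model overlaps Mindy1 on the opposite strand, a gene expressed at a higher level. Orm2, an acute-phase protein of plasma, had 0.629, 0.774 and 1.15 FPKM in iWAT, against 4.48, 5.19 and 4.28 FPKM in eWAT (log2 difference -1.94 ± 0.21, adjusted p = 0.0334). Its paralogue Orm1, chosen after its values were seen, was far more abundant, at 250.3, 189 and 303 FPKM in iWAT, against 221, 400.1 and 145 FPKM in eWAT, and overlapped between the depots (log2 difference 0.05, adjusted p = 0.959).

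The last 2 of the falls were genes of the stress response. Hspa1b, the inducible heat shock protein 70 of the cytosol, had 1.93, 1.42 and 1.61 FPKM in iWAT, against 6.47, 5.25 and 5.3 FPKM in eWAT (log2 difference -1.52 ± 0.18, adjusted p = 0.0438). Its near-identical copy Hspa1a had 0.694, 0.682 and 0.582 FPKM in iWAT, against 2.08, 1.67 and 1.53 FPKM in eWAT and was not called (log2 difference -0.96, adjusted p = 0.0968); reads can be split between the pair. Mt1, a metallothionein that binds zinc and copper, had 43.4, 46.1 and 59.5 FPKM in iWAT, against 157, 137 and 134 FPKM in eWAT (log2 difference -1.52 ± 0.17, adjusted p = 0.0402). Its neighbour Mt2 had 6.63, 2.93 and 5.59 FPKM in iWAT, against 23.3, 33.8 and 14.8 FPKM in eWAT (log2 difference -2.13, adjusted p = 0.0843). Every iWAT library lay under every eWAT library for all 4 genes. Mt1, Mt2 and Hspa1a were chosen after their values were seen. The RefSeq promoter windows of Hspa1b and Mt1 (GRCm38.p6, 250 bases before and 50 after the start) are shown because heat shock and metal response elements are well known from these genes. The Hspa1b window is chr17:34959189-34959488 on the minus strand and the Mt1 window chr8:94178839-94179138 on the plus strand, 5′ to 3′, and capitals mark matches of the heat shock element GAANNTTC in Hspa1b and of the metal response element TGCNCNC in Mt1, searched on both strands.
Hspa1b: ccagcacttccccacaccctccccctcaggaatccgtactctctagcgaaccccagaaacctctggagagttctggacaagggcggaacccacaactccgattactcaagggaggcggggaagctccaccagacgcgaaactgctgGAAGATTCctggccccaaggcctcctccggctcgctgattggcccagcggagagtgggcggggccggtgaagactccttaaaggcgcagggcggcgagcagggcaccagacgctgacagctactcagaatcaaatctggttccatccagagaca
Mt1: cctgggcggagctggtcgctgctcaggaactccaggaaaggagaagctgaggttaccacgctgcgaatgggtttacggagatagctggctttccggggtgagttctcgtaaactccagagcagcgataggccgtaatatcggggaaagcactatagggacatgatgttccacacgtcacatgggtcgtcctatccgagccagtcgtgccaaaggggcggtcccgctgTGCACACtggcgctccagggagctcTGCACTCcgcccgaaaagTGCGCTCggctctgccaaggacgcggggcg
Hspa1b holds 1 match, as do 7.86% of the 32851 promoter windows in the table, which hold at least 1. Mt1 holds 3 separate matches; 51.0% of windows hold at least 1 and 7.10% at least 3. A match describes the letters of the window and is not evidence of binding.

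Macrophage genes were lower in iWAT as a group, without a call for any single one. All 20 pan-macrophage genes had a negative log2 difference, with a median of -2.31 against 0.02 over all genes, and 17 of the 20 had all iWAT libraries under all eWAT libraries, against 13.1% of all genes. Their summed level was 788, 256 and 504 FPKM in iWAT, against 4064, 1326 and 5088 FPKM in eWAT. Adgre1, the macrophage antigen F4/80, had 23.0, 7.96 and 11.1 FPKM in iWAT, against 115, 32.3 and 145 FPKM in eWAT (log2 difference -2.64 ± 0.62, adjusted p = 0.111). Ctss, the lysosomal protease cathepsin S, had 66.2, 15.4 and 38.7 FPKM in iWAT, against 515, 155 and 701 FPKM in eWAT (log2 difference -3.47 ± 0.70, adjusted p = 0.0982). Mpeg1, a pore-forming protein of macrophages, had 21.8, 6.52 and 12.9 FPKM in iWAT, against 129, 42.9 and 184 FPKM in eWAT (log2 difference -2.98 ± 0.62, adjusted p = 0.0998). In all 3 genes eWAT replicate 2 was the lowest eWAT library and iWAT replicate 2 the lowest iWAT library. All 20 genes were called lower without eWAT replicate 2, against 6.2% of all genes. That library was singled out for its low macrophage RNA, so this count is not separate support. With the spread of all 8 groups 18 of the 20 were called lower, against 7.75%.

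Genes of lipid-associated macrophages, the state that takes up lipid in obese fat, were also lower in iWAT in most members. Trem2, the lipid receptor that marks the state, had 4.07, 0.439 and 1.87 FPKM in iWAT, against 60.6, 10.4 and 81.2 FPKM in eWAT (log2 difference -4.13 ± 0.87, adjusted p = 0.101). Spp1, the secreted matrix protein osteopontin, had 1.41, 0.182 and 0.304 FPKM in iWAT, against 32.3, 4.75 and 49.7 FPKM in eWAT (log2 difference -4.34 ± 0.85, adjusted p = 0.0955). Gpnmb, a glycoprotein of lysosome-rich macrophages, had 19.6, 3.27 and 3.97 FPKM in iWAT, against 231, 45.1 and 568 FPKM in eWAT (log2 difference -4.70 ± 1.01, adjusted p = 0.103). Nceh1, an enzyme that cleaves cholesterol esters, had 2.51, 0.899 and 1.77 FPKM in iWAT, against 26.9, 7.74 and 36.1 FPKM in eWAT (log2 difference -3.25 ± 0.57, adjusted p = 0.0843). Every iWAT library was under every eWAT library for these 4 genes. In the list of 20 genes 15 had this pattern, 2 had the opposite one, the median log2 difference was -2.36 and none was called. The exceptions were Cd36, a fatty acid transporter that adipocytes express as well, at 1357, 1644 and 1520.5 FPKM in iWAT, against 1132, 1260.2 and 1139.8 FPKM in eWAT, and the phosphatase Acp5, at 178, 225 and 198 FPKM in iWAT, against 90.7, 137 and 86.6 FPKM in eWAT; both names were chosen after their values were seen. Without eWAT replicate 2, 16 of the 20 were called lower and 1 higher, against 6.2% and 3.39% of all genes.

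Tissue-resident macrophage genes had a median nearer to 0. Their median log2 difference was -0.57 over 15 genes, 6 had all iWAT libraries under all eWAT libraries, against 13.1% of all genes, and none was called. Leaving out eWAT replicate 2, 3 of the 15 were called lower, against 6.2%. Folr2, a folate receptor of perivascular macrophages, had 6.59, 3.78 and 4.18 FPKM in iWAT, against 23.95, 9.85 and 15.8 FPKM in eWAT (log2 difference -1.62 ± 0.35, adjusted p = 0.102). The mannose receptor Mrc1 had 18.2, 11.2 and 10.8 FPKM in iWAT, against 46.7, 23.8 and 36.1 FPKM in eWAT (log2 difference -1.37 ± 0.30, adjusted p = 0.105).

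Lists of lysosomal and immune products leaned the same way. Lysosomal genes had a negative log2 difference in 30 of 31, a median of -0.87 and 16 genes with all iWAT libraries under all eWAT libraries, none of them called. Hexa, a subunit of the lysosomal enzyme hexosaminidase, had 88.8, 51.9 and 74.2 FPKM in iWAT, against 226, 128 and 246 FPKM in eWAT (log2 difference -1.45 ± 0.31, adjusted p = 0.103). Npc2, a cholesterol carrier of lysosomes, had 149.7, 98.0 and 139.9 FPKM in iWAT, against 256, 223 and 223 FPKM in eWAT (log2 difference -0.87 ± 0.21, adjusted p = 0.112). MHC class II genes, which present antigen, had a median of -1.20 over 9, with H2-Ab1 at 206, 98.5 and 170.4 FPKM in iWAT, against 427, 261 and 472 FPKM in eWAT (log2 difference -1.31 ± 0.35, adjusted p = 0.129) and H2-Aa at 177, 90.6 and 136 FPKM in iWAT, against 383, 211 and 400.1 FPKM in eWAT (log2 difference -1.29 ± 0.34, adjusted p = 0.128); 7 of the 9 did not overlap. Inflammatory cytokines and chemokines had a median of -0.97 over 22, with 9 under and 1 above without overlap. The chemokine Ccl6 had 68.6, 31.0 and 47.9 FPKM in iWAT, against 257, 152 and 233 FPKM in eWAT (log2 difference -2.15 ± 0.33, adjusted p = 0.0667) and Ccl9 had 28.4, 11.5 and 20.5 FPKM in iWAT, against 142, 66.0 and 173 FPKM in eWAT (log2 difference -2.61 ± 0.45, adjusted p = 0.0843). Complement genes had a median of -0.94 over 17, 10 of them with all iWAT libraries under all eWAT libraries. Complement C3 had 139, 53.5 and 73.1 FPKM in iWAT, against 784, 552 and 390.5 FPKM in eWAT (log2 difference -2.75 ± 0.41, adjusted p = 0.0636). Over all genes 13.1% had iWAT libraries all under and 11.2% all above. No gene of these 4 lists was called with all 6 libraries. With eWAT replicate 2 left out, the number called lower was 16 of 31 lysosomal, 4 of 9 MHC class II, 8 of 22 cytokine and 7 of 17 complement genes, against 6.2% of all genes. In the cytokine and complement lists 1 gene each was called higher. Macrophage genes moved with each of these lists between the depots, and their part in the differences was not tested.

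**Figure D3:**
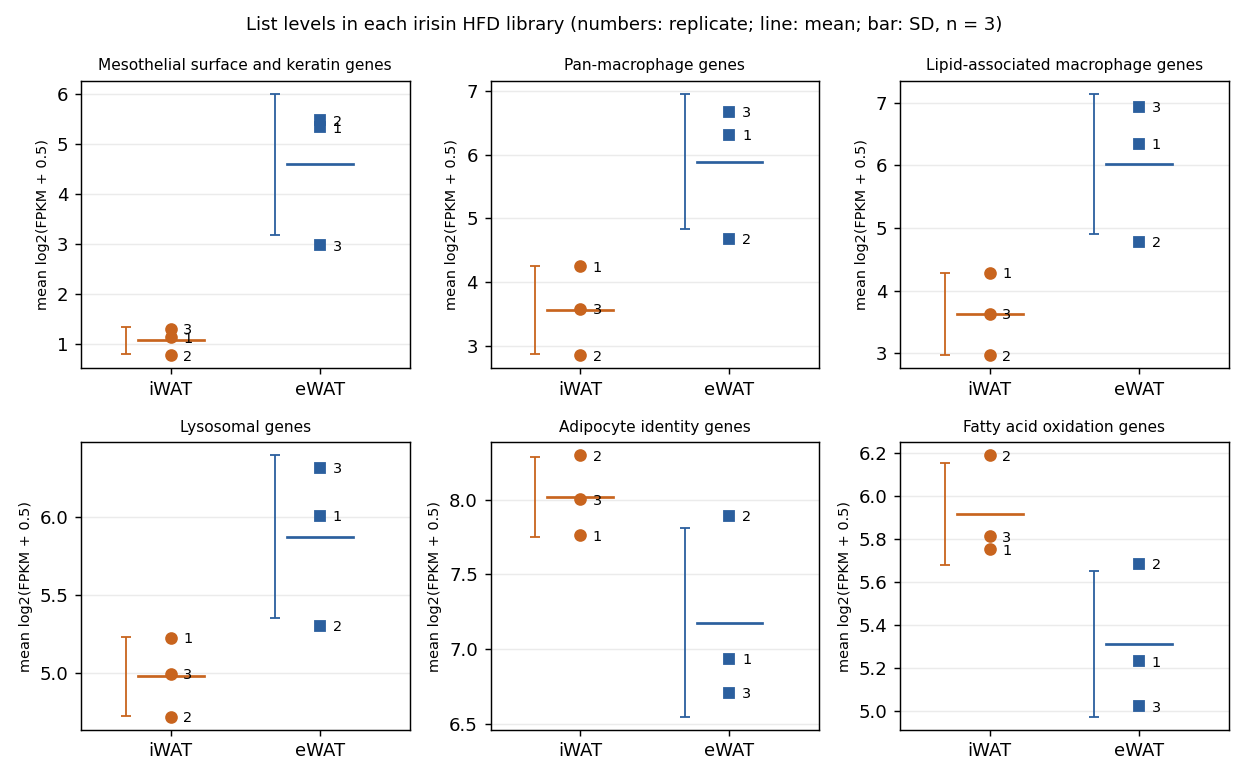
Mean log2(FPKM + 0.5) over the tested members of 6 lists in each library, iWAT as circles on the left and eWAT as squares on the right, with replicate numbers, the mean as a line and the SD as a bar (n = 3). The iWAT libraries lie under the eWAT libraries for the mesothelial, macrophage and lysosomal lists, eWAT replicate 2 lies nearest to iWAT for the macrophage, lysosomal and metabolic lists, and eWAT replicate 3 for the mesothelial list.

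Other immune lists gave no call with all 6 libraries. T and NK cell markers had 7 of 18 members tested with a median log2 difference of -0.01, regulatory T cell markers 4 of 10 with -0.34, and dendritic, mast and granulocyte markers 10 of 15 with -1.05. Interferon response genes had a median of 0.06 over 17. Cell cycle genes had a negative log2 difference in all 20, with a median of -0.90; 1 gene had all iWAT libraries under all eWAT libraries, against 13.1% of all genes. When eWAT replicate 2 was left out, 18 of the 20 cell cycle genes had this pattern, against 22.9% of all genes, and 2 were called lower, against 6.2%. That library had the lowest eWAT sum of these genes, at 54.1 FPKM against 110 and 168 FPKM in replicates 1 and 3. The higher count without it is thus not separate support. The fit without eWAT replicate 2 called lower 3 of 10 dendritic, mast and granulocyte markers, 1 of 4 regulatory T cell markers and none of 7 T and NK cell markers. It called 1 of 17 interferon response genes higher.

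The genes named by the series title were low in both depots. Il33, the alarm cytokine, had 1.6, 1.19 and 1.54 FPKM in iWAT, against 5.74, 3.39 and 2.61 FPKM in eWAT (log2 difference -1.13 ± 0.28, adjusted p = 0.117). Il1rl1, which encodes its receptor ST2, had 1.13, 1.01 and 1.37 FPKM in iWAT, against 3.65, 1.32 and 2.85 FPKM in eWAT (log2 difference -0.82 ± 0.32, adjusted p = 0.226). All iWAT libraries lay under all eWAT libraries for Il33, while the depots overlapped for Il1rl1, and neither passed the test. Il1rl1 was called without eWAT replicate 2 (log2 difference -1.16, adjusted p = 0.0318). In the list of IL-33, ST2 and type 2 genes 12 of 17 were tested, with a median of -0.52, 3 with all iWAT libraries under all eWAT libraries (13.1% of all genes) and none called. In the fit that omitted eWAT replicate 2, 3 of the 12 were called lower, against 6.2% of all genes. Il7r, the interleukin 7 receptor of lymphocytes, had the lowest p of that list, with 0.906, 0.321 and 0.359 FPKM in iWAT, against 15.4, 4.33 and 24.4 FPKM in eWAT (log2 difference -3.64 ± 0.59, adjusted p = 0.0771). Fndc5, the irisin precursor, had 0.392, 3.17 and 3.91 FPKM in iWAT, against 3.32, 4.94 and 1.04 FPKM in eWAT (log2 difference -0.38 ± 0.71, adjusted p = 0.82). Its depots overlapped, and iWAT replicate 1 lay far from the other iWAT libraries. Among 9 genes of the irisin precursor and integrin receptors none was called and the median was -0.41. The integrin subunits Itgav and Itgb3 had 2.48, 3.62 and 4.57 FPKM in iWAT, against 7.82, 4.64 and 6.01 FPKM in eWAT and 1.71, 0.965 and 1.47 FPKM in iWAT, against 2.56, 1.97 and 2.44 FPKM in eWAT (log2 difference -0.72 ± 0.27, adjusted p = 0.204, and log2 difference -0.60 ± 0.22, adjusted p = 0.201).

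Adipocyte genes had higher sums in iWAT than in eWAT replicates 1 and 3, and none passed the test. Of 31 adipocyte identity genes 30 had a positive log2 difference, with a median of 0.79, and 10 had all iWAT libraries above all eWAT libraries, against 11.2% of all genes. Their summed level was 18329, 25490.0 and 22645 FPKM in iWAT, against 11510.2, 21069.9 and 9795 FPKM in eWAT, so that eWAT replicate 2 lay within the iWAT range. Agpat2, an enzyme of triglyceride synthesis, had 419, 388 and 356 FPKM in iWAT, against 182, 198 and 192 FPKM in eWAT (log2 difference 1.02 ± 0.16, adjusted p = 0.0722). Plin4, a lipid droplet protein, had 830.4, 879.7 and 784 FPKM in iWAT, against 267, 490.0 and 280.1 FPKM in eWAT (log2 difference 1.32 ± 0.28, adjusted p = 0.102). Adipoq, the hormone adiponectin, had 1544, 1665 and 1958 FPKM in iWAT, against 952, 1835 and 649.9 FPKM in eWAT (log2 difference 0.72 ± 0.41, adjusted p = 0.392). Lep, the satiety hormone leptin, had 1107, 995 and 2183 FPKM in iWAT, against 1057, 1462 and 916 FPKM in eWAT (log2 difference 0.26 ± 0.38, adjusted p = 0.768). Both hormones overlapped between the depots. Without eWAT replicate 2, 15 of the 31 genes were called higher, against 3.39% of all genes.

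Mitochondrial fuel genes had positive log2 differences in most members. All 24 genes of branched-chain amino acid breakdown and the citrate cycle had a positive log2 difference (median 0.72), as did 21 of 22 genes of fatty acid oxidation (median 0.69) and 48 of 49 nuclear genes of oxidative phosphorylation (median 0.38). Libraries of the depots did not overlap in 10 of 24, 9 of 22 and 5 of 49 of these genes, all higher in iWAT, against 11.2% of all genes, so that the share of oxidative phosphorylation genes was near that of all genes. None was called. Idh3a, a subunit of isocitrate dehydrogenase, had 85.2, 112 and 88.3 FPKM in iWAT, against 45.1, 69.7 and 41.6 FPKM in eWAT (log2 difference 0.89 ± 0.23, adjusted p = 0.126). Citrate synthase Cs had 107, 127 and 92.3 FPKM in iWAT, against 57.9, 76.2 and 53.0 FPKM in eWAT (log2 difference 0.80 ± 0.20, adjusted p = 0.117). Cpt2, the carnitine palmitoyltransferase of the inner mitochondrial membrane, had 88.6, 114 and 81.5 FPKM in iWAT, against 42.4, 64.2 and 37.2 FPKM in eWAT (log2 difference 1.001 ± 0.24, adjusted p = 0.114). The carnitine carrier Slc25a20 had 23.6, 31.4 and 22.9 FPKM in iWAT, against 15.5, 17.8 and 13.4 FPKM in eWAT (log2 difference 0.72 ± 0.18, adjusted p = 0.119). Cyc1 and Uqcrc1, subunits of respiratory complex III, differed by 0.80 ± 0.22 and 0.71 ± 0.20 (adjusted p = 0.138 and 0.142). Without eWAT replicate 2 the numbers called higher were 12 of 24, 5 of 22 and 3 of 49, against 3.39% of all genes. Adipocyte identity genes moved with these lists as well, and their part in the differences was not tested.

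De novo lipogenesis genes were mixed, with a median of 0.33 over 20. Elovl6, which elongates fatty acids, had 3.9, 3.1 and 3.49 FPKM in iWAT, against 6.56, 7.19 and 6.03 FPKM in eWAT (log2 difference -0.83 ± 0.16, adjusted p = 0.0921). Mlxipl, the carbohydrate-sensing factor ChREBP, had 19.3, 14.3 and 12.6 FPKM in iWAT, against 7.68, 8.54 and 8.75 FPKM in eWAT (log2 difference 0.83 ± 0.19, adjusted p = 0.105). Neither pair of groups overlapped. Cholesterol synthesis genes had a median of 0.04 over 18, and adipokine and secreted factor genes one of 0.11 over 23. Among the secreted factors Agt, the angiotensin precursor, had 3.67, 1.7 and 1.15 FPKM in iWAT, against 18.0, 85.9 and 11.3 FPKM in eWAT (log2 difference -3.43 ± 0.74, adjusted p = 0.104). Gdf15, a stress-induced cytokine, had 0.877, 0.324 and 0.451 FPKM in iWAT, against 2.4, 1.9 and 7.54 FPKM in eWAT (log2 difference -1.90 ± 0.48, adjusted p = 0.117). Adipose expansion genes had a median of 0.67 over 9, led by the imprinted genes Peg3, at 12.04, 19.5 and 33.7 FPKM in iWAT, against 8.59, 6.67 and 6.28 FPKM in eWAT (log2 difference 1.43 ± 0.35, adjusted p = 0.117), and Nnat, at 379, 697 and 800.1 FPKM in iWAT, against 189, 429 and 142 FPKM in eWAT (log2 difference 1.40 ± 0.47, adjusted p = 0.176). Thermogenic and beige genes had 15 of 24 members tested, a median of 0.41 and no call. Prdm16, a transcriptional regulator of beige fat, had 3.44, 2.91 and 2.95 FPKM in iWAT, against 0.833, 0.701 and 1.05 FPKM in eWAT (log2 difference 1.41 ± 0.19, adjusted p = 0.0563), without overlap. Ckb, a creatine kinase, went the other way, with 16.6, 12.7 and 15.1 FPKM in iWAT, against 70.4, 38.5 and 147 FPKM in eWAT (log2 difference -2.28 ± 0.45, adjusted p = 0.0943). Leaving out eWAT replicate 2, 3 thermogenic and beige genes were called higher and 3 lower, as were 3 and 3 adipokine and secreted factor genes, 3 and 2 lipogenesis genes, 1 and 0 adipose expansion genes and no cholesterol synthesis gene, against 3.39% higher and 6.2% lower over all genes. Ucp1, the uncoupling protein of thermogenic fat, did not pass the filter, at 0.331, 0.183 and 0.409 FPKM in iWAT, against 0.158, 0 and 0.234 FPKM in eWAT.

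Markers of vessels and nerves had positive medians. Endothelial and lymphatic markers had a median log2 difference of 0.72 over 16, with Emcn, a sialomucin of capillaries and veins, at 6.88, 3.96 and 5.55 FPKM in iWAT, against 2.69, 2.86 and 3.43 FPKM in eWAT (log2 difference 0.75 ± 0.22, adjusted p = 0.15). Pdpn, podoplanin, which mesothelium expresses as well as lymphatic vessels, went the other way, at 4.74, 1.81 and 4.6 FPKM in iWAT, against 26.3, 25.2 and 15.7 FPKM in eWAT (log2 difference -2.50 ± 0.37, adjusted p = 0.0622). Mural and smooth muscle markers had a median of 0.80 over 10, with the pericyte gene Rgs5 at 81.1, 51.6 and 83.6 FPKM in iWAT, against 24.8, 33.1 and 31.3 FPKM in eWAT (log2 difference 1.24 ± 0.23, adjusted p = 0.0873) and Cspg4, the pericyte proteoglycan NG2, at 14.4, 8.32 and 7.59 FPKM in iWAT, against 4.51, 2.22 and 6.02 FPKM in eWAT (log2 difference 1.19 ± 0.38, adjusted p = 0.159). Nerve and Schwann cell markers had a median of 1.02 over 8, 5 of them with all iWAT libraries above all eWAT libraries, against 11.2% of all genes. Sox10, the transcription factor of Schwann cells, had 0.728, 0.54 and 0.621 FPKM in iWAT, against 0, 0.0235 and 0.0209 FPKM in eWAT (log2 difference 1.13 ± 0.21, adjusted p = 0.093). It passed the filter through iWAT alone, which fixed its lack of overlap in advance, so the 11.2% is not a like measure for it. Stromal progenitor markers had a median of -0.20 over 20. None of these 4 lists had a called gene with all 6 libraries. When eWAT replicate 2 was left out, 4 of 8 nerve, 2 of 20 stromal, 1 of 10 mural and 1 of 16 endothelial genes were called higher, against 3.39% of all genes, and 1 endothelial gene was called lower.

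Secreted signals and matrix enzymes were mixed. Wnt, BMP and growth factor genes had a median of -0.02 over 33. Sfrp1, a secreted Wnt antagonist, had 2.22, 0.806 and 0.535 FPKM in iWAT, against 8.53, 9.32 and 7.34 FPKM in eWAT (log2 difference -2.52 ± 0.36, adjusted p = 0.0595). Fgf10, a growth factor of fat precursor cells, had 14.9, 25.4 and 17.2 FPKM in iWAT, against 6.88, 10.2 and 5.34 FPKM in eWAT (log2 difference 1.31 ± 0.28, adjusted p = 0.104). Matrix protease and inhibitor genes had a median of 0.00 over 18. Mmp12, the macrophage metalloelastase, had 5.82, 0.104 and 2.41 FPKM in iWAT, against 84.1, 17.2 and 197 FPKM in eWAT (log2 difference -4.90 ± 1.10, adjusted p = 0.105). Timp1, an inhibitor of matrix metalloproteases, had 2.14, 0.76 and 2.32 FPKM in iWAT, against 24.7, 7.12 and 38.6 FPKM in eWAT (log2 difference -3.22 ± 0.62, adjusted p = 0.0936). Retinoid pathway genes had a median of 0.00 over 14, with Dhrs9, a retinol dehydrogenase, at 0.278, 0.0875 and 0.247 FPKM in iWAT, against 8.53, 2.37 and 10.3 FPKM in eWAT (log2 difference -3.23 ± 0.50, adjusted p = 0.0658) and Aldh1a2, an enzyme of retinoic acid synthesis that mesothelium expresses, at 1.96, 0.364 and 2.02 FPKM in iWAT, against 13.2, 12.98 and 5.95 FPKM in eWAT (log2 difference -2.60 ± 0.50, adjusted p = 0.0936). All 6 genes named here were without overlap between the depots, and none passed the test. Dhrs9, under 0.5 FPKM in every iWAT library, passed the filter through eWAT alone, which fixed its lack of overlap in advance. Adrenergic and steroid receptors had a median of 0.39 over 13, and skin and mammary epithelium genes had only 2 of 18 members tested. With eWAT replicate 2 left out, 2 signalling genes were called higher and 2 lower, 1 and 4 matrix protease genes, 2 and 2 retinoid genes, and 2 and 0 receptor genes, against 3.39% higher and 6.2% lower over all genes.

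Whether the depot difference of irisin mice on HFD differed from that of GFP mice on HFD was tested as an interaction across all 8 groups and 17687 genes. No gene was called (0%), with a lowest adjusted p of 0.896 and 443 genes at an unadjusted p under 0.05; limma's voom on recovered reads also called 0, with 378 at an unadjusted p under 0.05. In eWAT of GFP mice on HFD the epididymal gene Adam7 averaged 97.1 FPKM with an SD of 168, against 0 in every irisin HFD library. The part of epididymal RNA in this interaction was not tested. The depot differences in GFP mice on HFD were 4.04 for Hoxc10, 2.91 for Tbx15, -5.98 for Slpi and -1.74 for Mt1, in the same directions as with irisin. The difference between the vectors, irisin minus GFP, was 0.50 ± 0.27 for Hoxc10, 0.41 ± 0.27 for Tbx15, -0.77 ± 0.95 for Slpi and 0.22 ± 0.35 for Mt1 (log2 ± SE). For macrophage and signalling genes it was 0.65 ± 0.82 for Adgre1, 0.72 ± 1.05 for Trem2, 0.09 ± 0.85 for Il33 and 0.21 ± 0.42 for Il1rl1. The standard errors of Adgre1, Trem2, Il33 and Slpi leave room for differences of several fold. The median depot difference of the pan-macrophage list was -2.31 with irisin and -2.51 with GFP, and that of the adipocyte list 0.79 and 0.83. Other lists had medians of opposite sign: B cell markers were at -1.06 with irisin and 2.16 with GFP, T and NK cell markers at -0.01 and 1.22, regulatory T cell markers at -0.34 and 0.42, resident macrophage genes at -0.57 and 0.47, and dendritic, mast and granulocyte markers at -1.05 and 0.23. The MHC class II list was at -1.20 with irisin and -0.17 with GFP. In iWAT of GFP mice on HFD the summed levels spread widely between libraries. They ran from 15.2 to 362 FPKM for T and NK cell markers and from 649 to 2136 FPKM for B cell markers. For regulatory T cell markers they ran from 5.86 to 31.6 FPKM. In iWAT of irisin mice on HFD T and NK cell markers summed to 11.9 to 19.6 FPKM and B cell markers to 602 to 755 FPKM. The list medians were not tested against each other, and the part of that spread in them was not tested.

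The same interaction against irisin mice on chow called 659 genes (3.73% of 17687), 180 higher (1.02%) and 479 lower (2.71%), where lower means that the difference of iWAT minus eWAT was more negative on HFD. Macrophage genes led it: 16 of 20 pan-macrophage and 14 of 20 lipid-associated macrophage genes were called lower, and 1 of the second list higher. Adgre1 had a depot difference of -2.64 on HFD and 0.78 on chow (interaction -3.41 ± 0.82, adjusted p = 0.0302), and Spp1 had -4.34 and 3.24 (-7.57 ± 1.01, adjusted p = 0.00193). Gpnmb had -4.70 and 2.73 (-7.44 ± 1.16, adjusted p = 0.0063), and Trem2 -4.13 and -0.06 (-4.07 ± 1.05, adjusted p = 0.0387). On chow iWAT was thus not under eWAT for these genes, and the difference of Trem2 was near 0. The sums of the pan-macrophage list in irisin mice on chow were 1193 to 1793 FPKM in iWAT and 794 to 933 FPKM in eWAT, while the 3 iWAT libraries on chow also held 91.1 to 4435 FPKM of skeletal muscle genes, against 19.4 to 41.4 FPKM in eWAT on chow. The part of that muscle RNA in the interaction was not tested. Single libraries also decided much of this count: without eWAT replicate 3 the interaction called 20 higher and 44 lower, without eWAT replicate 2 it called 1018 and 1403, without eWAT replicate 1 it called 49 and 80, and without iWAT replicate 2 or 3 it called 74 and 68 or 21 and 63. Spp1 and Gpnmb were called whichever HFD library was left out, while Adgre1 and Trem2 were called in 2 of those 6 fits, with adjusted p of 0.00236 to 0.103 and 0.00286 to 0.123. Neither was called with no filter, and Trem2 was not called with voom on recovered reads or with a pseudocount of 0.1. Of 8 nerve markers 6 were also called lower, while their median depot difference was positive on both diets, at 1.02 on HFD and 2.60 on chow.

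Patterning and mesothelial genes differed between the depots on both diets. The median of the subcutaneous patterning list was 1.46 on HFD and 1.63 on chow with irisin, and that of the mesothelial list -3.74 and -4.71. Tbx15 differed by 3.32 on HFD and 4.72 on chow (-1.40 ± 0.27, adjusted p = 0.016), and Wt1 by -2.59 and -4.08 (1.496 ± 0.41, adjusted p = 0.0469), so that both depot differences were smaller on HFD. The call for Tbx15 held whichever HFD library was left out, that for Wt1 in 2 of the 6 fits (adjusted p 0.0184 to 0.124). With voom on recovered reads neither was called, and Wt1 was also not called with the replicate block, with no filter and with a pseudocount of 0.1. Hoxc10 had depot differences of 4.54 and 4.57. Ret had 2.21 and 0.89 (1.31 ± 0.39, adjusted p = 0.0633), and Mt1 -1.52 and -0.26 (-1.26 ± 0.35, adjusted p = 0.0524), neither of them called. Adipocyte identity genes had a median of 0.79 on HFD and -0.34 on chow, with 5 of 31 called higher, against 1.02% of all genes.

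**Figure D4:**
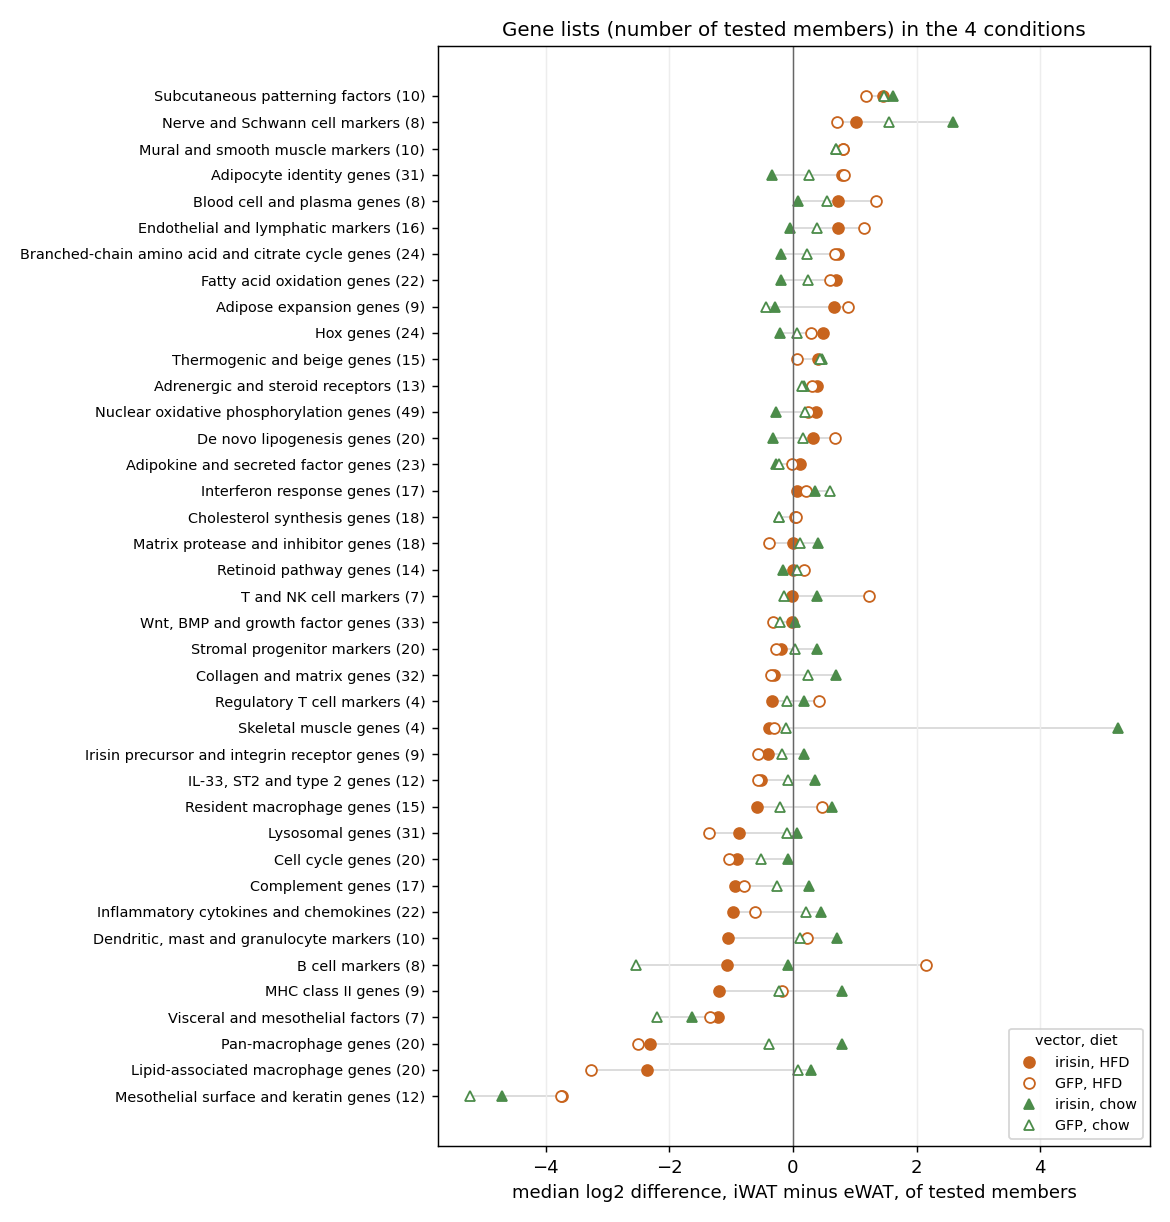
Median log2 difference, iWAT minus eWAT, of the tested members of each list with at least 4 of them, in irisin HFD (filled circles), GFP HFD (open circles), irisin chow (filled triangles) and GFP chow (open triangles). The subcutaneous and mesothelial lists keep their side of 0 in all 4 conditions, the pan-macrophage and lipid-associated macrophage lists lie under -2 on HFD and above -1 on chow, and the skeletal muscle list is at 5.26 in irisin chow.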

How the data were processed

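Polyadenylated RNA of iWAT and eWAT was sequenced, per the labels' protocols, in 24 libraries of 8 groups of 3. Alignment used HISAT2 2.0.5 and counting featureCounts 1.5.0-p3, per the submitters' processing notes. The deposited table holds FPKM per gene, which the authors scaled by gene length and library size; the genome build and the strand setting are not stated in those sources. Of 54532 gene IDs, 54409 are in GENCODE M21, 98.3% of those at the same position. Multiplied by gene length, 100% of values were whole multiples of 1 step per library (tolerance 0.01), which gave back the reads behind each value: 14.1 to 19.7 M per library, the authors' scale being 0.91 to 1.15 times that sum. Intervals and floors (3 reads per library) cover counting error only. The table's 8 further numeric columns were not used.

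Genes that reached 0.5 FPKM in 3 or more of the 6 irisin HFD libraries were tested with limma 3.58.1 (R 4.3.3; trended moderation, Benjamini-Hochberg adjustment, two-sided) on log2(FPKM + 0.5), a scale that understates the change of low genes. Exact permutation of 3 against 3 libraries cannot go below p = 0.1. Interactions were fitted on all 8 groups, which share 1 estimate of the spread. The members and lists were chosen with earlier results of these data known. Genes named by rule were Tbx15, Wt1, Fndc5, Il33, Il1rl1, Adipoq, Lep, Ucp1, Adgre1 and Trem2; the 12 rises and 12 falls of largest size, taken from protein-coding calls that averaged 1 FPKM or more in either depot without overlap; up to 6 called (or the 2 of lowest p) per list described; up to 5 genes per direction of an interaction; and depot factors and Hox genes; a few genes are not reported here. Of the 28 called genes 19 had a RefSeq promoter (GRCm38.p6). On simulated data with the same means, 19% of 2-fold and 67% of 4-fold depot changes were recovered over 14357 genes, and 8.51% of calls were false. Alternatives were other pseudocounts, filters, scalings and moderation, a replicate block, array weights, voom on recovered reads, a fold minimum, all 8 groups in 1 fit, and each library left out. Python 3.11.15 and matplotlib 3.10.9 were used for tables and figures.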

Additional observations from a re-analysis of the deposited data

Results flagged for a closer look

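The depot difference of irisin mice on HFD differed from that of irisin mice on chow, by the interaction test (limma across all 8 groups, adjusted over 17687 genes), in the 18 genes given here, among others. A negative value means that iWAT minus eWAT was more negative on HFD. For macrophage genes the interaction was -3.41 for Adgre1, -4.07 for Trem2, -7.57 for Spp1 and -7.44 for Gpnmb. For genes of fast skeletal muscle it was -7.14 for Pvalb, -6.28 for Myh4 and -6.04 for Tnni2 (adjusted p 0.0132 to 0.0176). Skeletal muscle genes summed to 91.1 to 4435 FPKM in iWAT of irisin mice on chow, against 19.4 to 41.4 FPKM in eWAT of irisin mice on chow; the part of that RNA in the other interactions was not tested.

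Depot factors were on both sides, with -1.4 for Tbx15 and 1.5 for Wt1. Among Hox genes the interaction was 1.49 for Hoxc8, 1.48 for Hoxa7, 1.28 for Hoxc5, whose reads are uncertain, and 1.09 for Hoxa4. Other positive values were those of Serpina3b, a serine protease inhibitor (3.04, adjusted p = 0.00176), the growth factor gene Fgf1 (2.72), the potassium channel gene Kcnj15 (2.69, adjusted p = 0.00176), the glutathione transferase Gsta3 (2.59) and the galectin Lgals7 (2.59). Leaving out each HFD library in turn, the calls for 6 of these 18 genes (Tbx15, Spp1, Gpnmb, Myh4, Kcnj15 and Serpina3b) held every time, and each of the other 12 of the 18 was lost at least once. With voom on recovered reads Tbx15, Wt1, Trem2, Pvalb, Myh4, Tnni2, Lgals7 and Hoxc8 were not called.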

How the results depend on the processing

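All 28 genes called between the depots had the same sign under every alternative run, but the number of calls moved. It was 13 higher and 15 lower, against 7 and 3 with no filter, 149 and 461 with the replicate block, 468 and 977 with array weights, 658 and 1136 with all 8 groups in 1 fit, and 5 and 4 with a fold minimum of 1 log2 unit. Quantile scaling called 20 higher, and voom 7 lower. Leaving out 1 library gave 5 (without iWAT replicate 3) to 497 higher and 2 (without eWAT replicate 1 or iWAT replicate 3) to 909 lower, the highest without eWAT replicate 2. Of the 28 genes 28 were still called with the replicate block, 15 with voom and 7 without iWAT replicate 3. Members of any list called numbered 9, against 114 with the replicate block, 168 with array weights, 194 with all 8 groups, and 5 to 185 with 1 library left out.

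The replicate numbers were not treated as pairs: same-numbered iWAT and eWAT libraries had correlations of -0.02, 0.42 and -0.22 in their deviations from the group means, and 2 of 6 libraries correlated best with their own number. Whether iWAT and eWAT libraries came from the same mice is not known here, and these correlations cannot settle it. Against GFP HFD, no filter called 1 gene higher and array weights 2 lower. Against irisin chow the count was 180 higher and 479 lower, against 79 and 175 with no filter, 2059 and 2366 with array weights, 98 and 269 with voom, and 20 to 1018 and 44 to 1403 with 1 library left out.

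Signs turned, among values that were not called with all libraries, for the depot difference of Fndc5 (0.15 with array weights, -0.90 to 0.34 with 1 library left out) and Lep (-0.097 to 0.47), and for the interaction against GFP HFD of Trem2 (-0.00706 with array weights, -0.17 to 1.33 with 1 library left out), Adgre1 (-0.00818 to 1.07), Il33 (-0.13 to 0.37) and Il1rl1 (-0.14 to 0.46). The causes were not tested. Over all named genes and alternatives, 1763 values held their sign and side of the threshold, 189 passed it in addition, 191 no longer passed it and 9 turned sign. Depth limits genes near the filter, where 0.5 FPKM can stand for few reads in a short gene.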

Other observations

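Blood and plasma genes had a median log2 difference of 0.73 over 8 tested genes. None was called with all 6 libraries, and 5 of the 8 were called higher without eWAT replicate 2, against 3.39% of all genes. The haemoglobin gene Hba-a1 had 783, 441 and 527 FPKM in iWAT, against 165, 836 and 135 FPKM in eWAT (adjusted p = 0.43, limma). Albumin, Alb, which liver makes and plasma carries, had 3.24, 19.6 and 7.78 FPKM in iWAT, against 0.486, 2.82 and 0.272 FPKM in eWAT (adjusted p = 0.138). In both genes eWAT replicate 2 was the highest eWAT library.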
